A study of Mus musculus with 6 samples.

Results

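Methylation of 10 genes that build pluripotency or found the germ line was examined in mouse male germ cells: Pou5f1, Nanog, Sox2, Sall4, Utf1, Lin28a, Prdm1, Prdm14, Tfap2c and Nanos3. The genes were chosen by name, and a gene was measured where at least 3 cytosines in CpG dinucleotides, in the gene or within 1 kb of either end, were listed in all 6 libraries. Of the 10 genes, 9 met this rule, out of 28752 genes that met it in the whole table, and Nanos3 did not, with 2 cytosines. The data are reduced representation bisulfite sequencing, which reads DNA next to fixed restriction sites and so favours CpG-rich stretches, and in which a methylated cytosine is read as C and an unmethylated one as T. The 6 libraries fall into 3 labelled Control and 3 labelled CSDS, the usual short form for chronic social defeat stress, and both are described as male germ cells with DNA taken out by the same column kit. The labels give no strain, age, germ cell stage or length of exposure, and they do not say that replicates are separate animals, so p-values measure only the spread between these samples. The question is whether the methylation of germ cells differs after the exposure.

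Pou5f1, Nanog and Sox2 are transcription factors that hold cells in the pluripotent state, and Sall4, Utf1 and Lin28a work beside them. Prdm1, Prdm14 and Tfap2c set up primordial germ cells in the early embryo, and Nanos3 keeps those cells alive as they migrate. In later male germ cells much of this network is shut down, and methylation of promoters with intermediate or low CpG content, such as those of Pou5f1 and Nanog, is a known accompaniment of silencing, while CpG-rich promoters such as that of Sox2 usually stay unmethylated.

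Stretches of 4 of these promoters show which DNA was read. The first pair gives the 250 bases upstream of the annotated start of a CpG-rich promoter (Sox2, chr3:34649745-34649994, measured CpGs in capitals) and of a CpG-poor one (Nanog, chr6:122707239-122707488, every CpG in capitals, none of them measured). The second pair is at the first measured bases of Pou5f1 (chr17:35506053-35506080) and just after the listed start of Lin28a (chr4:134018781-134018810, reverse strand). In each of them the strands of a CpG gave opposite readings. Capitals in that pair mark CCGG, the sequence cut by the enzyme MspI, which reads the same on both strands. All are from RefSeq, build GRCm38.p6, written 5′ to 3′ on the strand of the gene.
Sox2: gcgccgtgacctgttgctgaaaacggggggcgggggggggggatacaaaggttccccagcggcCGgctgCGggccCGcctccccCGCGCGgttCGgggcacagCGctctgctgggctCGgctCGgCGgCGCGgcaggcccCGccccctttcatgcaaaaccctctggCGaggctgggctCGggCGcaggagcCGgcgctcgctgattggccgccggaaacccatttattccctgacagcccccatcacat
Nanog: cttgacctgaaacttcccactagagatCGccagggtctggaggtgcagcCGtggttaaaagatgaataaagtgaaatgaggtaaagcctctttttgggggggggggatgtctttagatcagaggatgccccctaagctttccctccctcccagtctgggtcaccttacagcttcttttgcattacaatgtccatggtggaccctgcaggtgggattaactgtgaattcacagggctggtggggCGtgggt
Pou5f1: gagccgtctttccaccaggcccCCGGct
Lin28a: cctCCGGacttctctggggccagcagccgc
The printed Sox2 stretch holds 27 CpGs, of which 18 were measured, and 84.5% of the 32851 promoter stretches of 300 bases in the table (250 upstream and 50 downstream of the start) hold fewer. The Pou5f1 stretch of that length has 11 CpGs, that of Lin28a 10 and that of Nanog 4, beside a median of 7. CCGG occurs in 52.8% of all such stretches. It is present in those of Sox2, Pou5f1, Utf1, Lin28a and Nanos3, and its letters are not in those of Nanog and Prdm1. Sall4, Prdm14 and Tfap2c are named only.

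The libraries listed 2420308 to 3156788 cytosines each, with a median coverage of 44 to 50 reads and none under 10, and 2210988 were listed in all 6. CSDS replicates 2 and 3 stood apart from the other 4 libraries in the share of reads showing C where DNA is taken to be unmethylated. At 27 mitochondrial cytosines the median share was 8.90%, 8.84% and 10.04% in Control replicates 1, 2 and 3, and 8.50%, 4.41% and 4.53% in CSDS replicates 1, 2 and 3. At the start windows (1 kb either side of a start) of 26 broadly expressed genes it was 13.4% to 14.2% in Control, 12.8% in CSDS replicate 1, and 7.80% and 8.51% in replicates 2 and 3. The main differences below are therefore also given after correction for the mitochondrial share. The windows of broadly expressed genes keep all listed cytosines, also those of CpGs whose strands disagree, described below. In the promoter stretches of the table, cytosines outside CCGG were at 8.70% in Control and 5.37% in CSDS. The share at broadly expressed genes may thus be too high, and correction by it may take away too much. As a check of the labelled cells, start windows of germline genes were at a median of 20.6% in Control (10 of 10 measured) and those of Sertoli genes at 19.7% (5 of 6). Those of Leydig genes were at 49.0% (4 of 6), and the 1 measured window each of immune and endothelial genes stood at 95.0% and 14.0%. Paternally methylated imprints were between 89.8% and 97.9% in Control and between 89.3% and 95.5% in CSDS. Maternally methylated ones were between 14.8% and 28.5% in Control and between 13.5% and 20.3% in CSDS. This is the arrangement known from male germ cells, although bounds of the H19 region were narrowed after its first value was seen. The groups were apart at Snrpn, by -11.5 points and -9.32 after correction, and at H19, by -2.86 and -2.96. They overlapped at the other imprints, as deposited and after this correction. In DNA from many cells, a shift in the makeup of the cells and a shift within each cell cannot be told apart.

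The genes spanned nearly the whole scale of methylation. Over all cytosines of a gene with its 1 kb flanks, each weighted equally, the Control mean was lowest at Sox2 (12.6% ± 1.09, SD, n = 3) and Utf1 (14.1% ± 0.434), whose Control libraries overlapped. Above them came Prdm14 (18.9% ± 1.23), Tfap2c (25.6% ± 1.42), Sall4 (30.1% ± 0.595), Lin28a (41.5% ± 1.10) and Prdm1 (49.6% ± 1.54). Pou5f1 (69.0% ± 2.40) and Nanog (92.2% ± 2.82) were highest. From Utf1 upward no neighbours in this order overlapped in Control. In CSDS the order was the same, but Sox2, Utf1, Prdm14 and Tfap2c overlapped each with the next. The levels depend on which cytosines the method reaches: Tfap2c was read at 283 cytosines, Sall4 at 249, Sox2 at 206, Prdm1 at 148, Prdm14 at 114, Lin28a at 112, Utf1 at 91, Pou5f1 at 35 and Nanog at 6. The median over all genes was 38.1%.

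**Figure D1:**
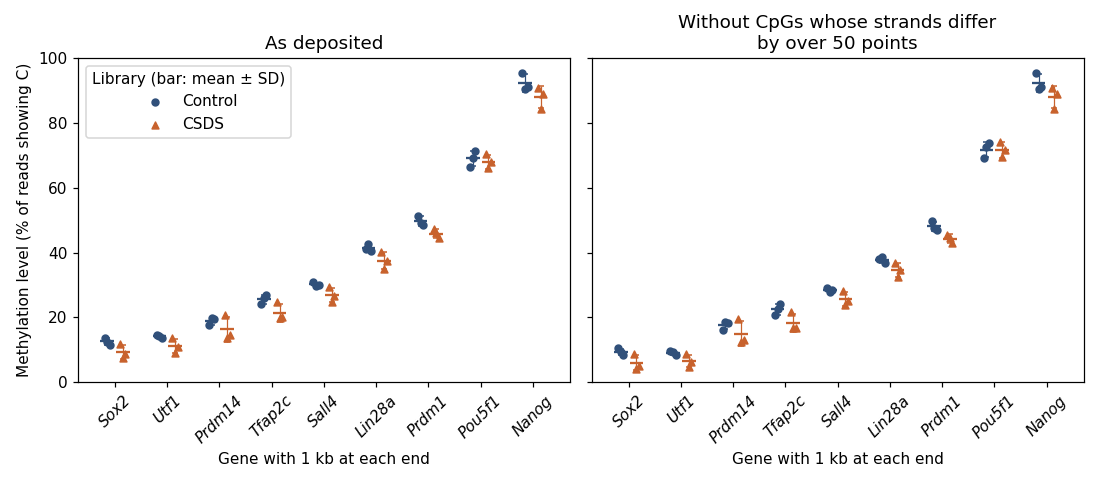
Methylation level (percent of reads showing C) of each of the 9 genes with 1 kb at each end, per library, with the mean and SD of 3 Control (circles) and 3 CSDS (triangles) libraries; the left panel is as deposited and the right panel leaves out CpGs whose strands differ by over 50 points. Levels run from about 12.6% at Sox2 to 92.2% at Nanog in Control, and differences between groups are small beside differences between genes.

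Within the genes the levels were mostly either low or high. Of the 206 cytosines at Sox2, 184 were under 20% in Control and 6 over 80%, and at Utf1 76 of 91 were under 20%. At Prdm14 84 of 114, at Tfap2c 208 of 283 and at Sall4 171 of 249 were under 20%. At Sall4 55 cytosines were over 80%, most of them away from its CpG-rich end, and at Tfap2c 45. Prdm1 was the most divided, with 65 cytosines under 20% and 57 over 80%. Its listed start, base 44458748, lies inside the annotated span of this reverse-strand gene. Low stretches were near that start, about 2 kb downstream of it, and at the upstream end of the span, with tiles at 92.9% to 97.2% between the start and the upstream end. The Prdm1 start window does not reach that end. Pou5f1 had 7 cytosines under 20% and 23 over 80%, and all 6 of Nanog were over 80%.

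**Figure D2:**
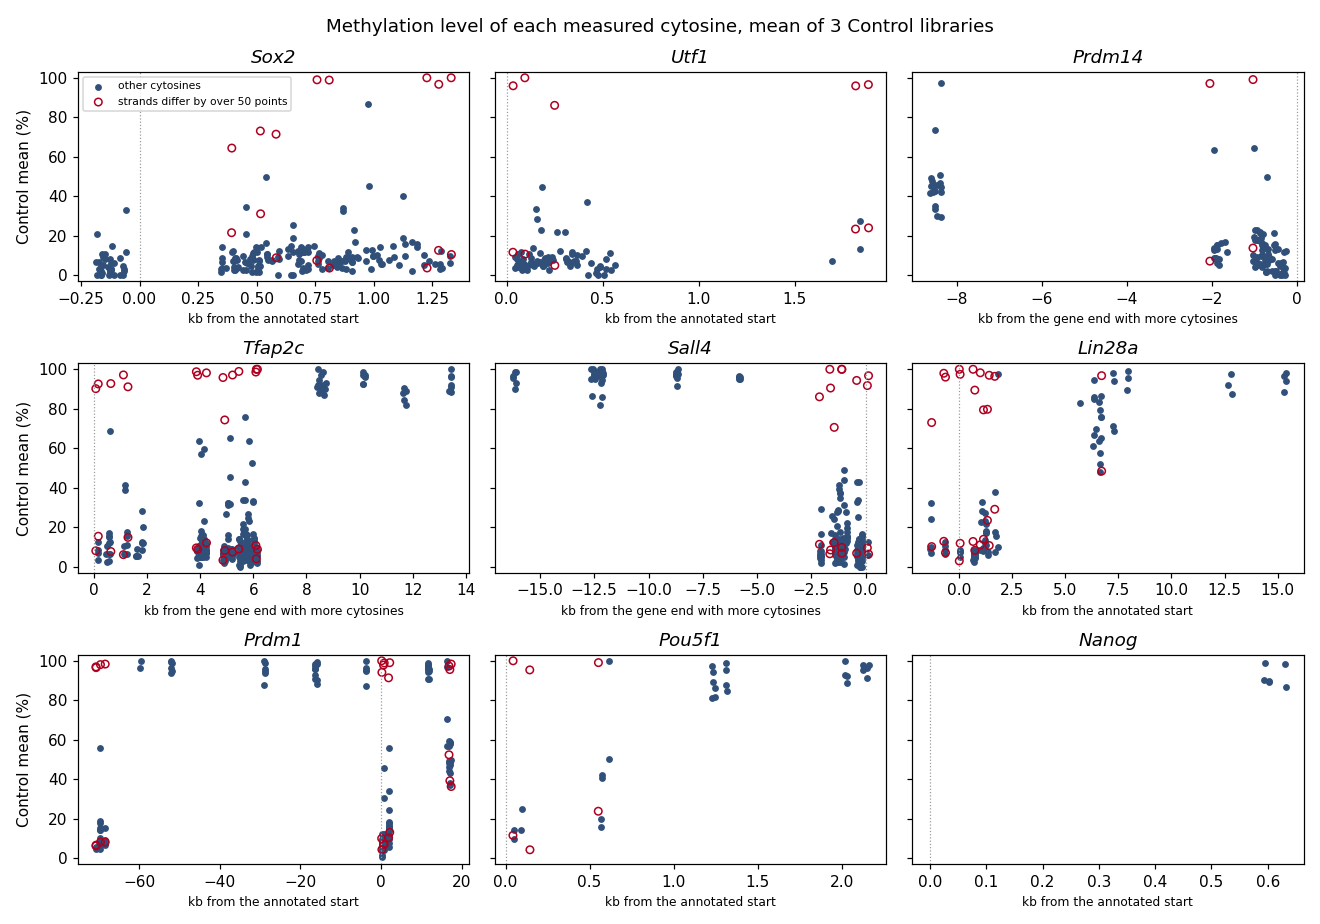
Control mean (percent of reads showing C, 3 libraries) of each measured cytosine of the 9 genes against its distance in kb from the annotated start, in the direction of transcription, or from the gene end with more cytosines where the strand is not given. Open red circles are cytosines of CpGs whose strands differ by over 50 points; Sox2, Utf1 and the CpG-rich end of Sall4 hold mostly low filled points, and Nanog only high ones.

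Pou5f1 (chr17:35506032-35510777, GRCm38), which encodes OCT4, was heavily methylated in its body and much less so beside its start. The 500 bp tile at the start, 8 cytosines, was at 34.4% ± 0.605 (SD, n = 3) in the Control libraries and 31.3% ± 4.09 (SD, n = 3) in the CSDS libraries. That level rests in part on CpGs whose strands disagree, described below, at bases 35506076 (11.6% forward and 100% reverse in Control) and 35506176 (95.4% and 4.34%). The other CpGs of the tile, at bases 35506081 (9.77% and 14.2%) and 35506126 (14.6% and 25.1%), were lower. The next tile was at 49.0%, and those further into the gene at 89.6% and 94.7%. Over the gene the libraries stood at 66.5%, 69.3% and 71.3% in Control and at 70.3%, 66.0% and 67.8% in CSDS. The groups overlapped, with the difference at -0.987 points, the smallest of the 9 genes. It was above 0 after the mitochondrial correction, at 0.215 points (exact two-sided permutation p = 0.7 as deposited; 0.1 is the smallest p that 3 against 3 libraries allow, so none of these tests can reach 0.05).

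Nanog (chr6:122707489-122714633), the homeodomain factor of naive pluripotency, was methylated at all 6 cytosines read, which lie within 1 tile starting at base 122708001 and not in the printed upstream stretch. The Control libraries were at 95.5%, 90.3% and 90.9% and the CSDS libraries at 90.7%, 84.1% and 88.9%. CSDS replicate 2 was the lowest and the groups overlapped. The difference was -4.36 points, and -4.27 after correction, since the correction moves high levels little (exact permutation p = 0.2). Over the 4 cytosines left without the shallower strand the groups were apart, by -7.27 points and by -7.21 after correction, and a coverage minimum of 20 also gave -7.27. The difference was -2.48 points without CSDS replicate 2 and -2.74 without Control replicate 1. With 183 to 439 reads behind each library's value, this is the least deeply measured of the 9 genes.

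Sox2 (chr3:34649995-34652461), the partner of OCT4, was nearly free of methylation. The upstream stretch printed above, 35 cytosines, was at 4.39%, 6.29% and 7.07% in Control and at 7.05%, 5.07% and 5.35% in CSDS. The groups overlapped there and differed by -0.0928 points, so that correction put every CSDS library above every Control library, by 3.67 points. The corrected means were below 0, at -3.68% in Control and -0.009% in CSDS. The Control levels there were under the mitochondrial share of their libraries, so the correction took away more than was read. This separation is therefore not read as a difference in methylation. Over the whole gene, Control was at 13.7%, 12.5% and 11.5% and CSDS at 11.8%, 7.59% and 8.55%. Only CSDS replicates 2 and 3 lay below all Control libraries. The difference of -3.23 points was 0.101 after correction (exact permutation p = 0.2). The long noncoding gene Sox2ot spans the whole of Sox2, so its cytosines belong to both.

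Sall4 (chr2:168748332-168767201), a zinc finger factor of stem cells and spermatogonial progenitors, had levels of 30.8%, 29.6% and 30.0% in Control and 29.4%, 24.8% and 26.5% in CSDS. All CSDS libraries were lower than all Control libraries, replicate 1 by little. The difference was -3.24 points, -0.761 for CSDS replicate 1 alone and -0.613 after correction, where the groups overlapped (exact permutation p = 0.1 as deposited). Its CpG-rich end overlaps the long noncoding gene Gm14261. Utf1 (chr7:139943856-139945112), a chromatin-bound factor of embryonic stem cells and early spermatogonia, stood at 14.5%, 14.2% and 13.7% in Control and 13.6%, 9.16% and 10.8% in CSDS. The groups just failed to touch, at -2.94 points, but the difference was 0.349 points after correction (exact permutation p = 0.1 as deposited). Lin28a (chr4:134003330-134019196), the RNA-binding protein that blocks let-7 maturation, was at 41.2%, 42.7% and 40.5% in Control and 40.2%, 34.9% and 37.3% in CSDS. Again all CSDS libraries were lower, by -4.03 points in the mean and -1.90 after correction with groups overlapping (exact permutation p = 0.1 as deposited). Without CpGs whose strands disagree, described below, the groups overlapped as deposited at Sall4, Utf1 and Lin28a.

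Among the founders of the germ line, Prdm1 (chr10:44437174-44528558), which encodes BLIMP1 and represses the somatic programme, was lower in all CSDS libraries. Control was at 51.3%, 49.0% and 48.5%, and CSDS at 47.1%, 45.9% and 44.6%. The gap was -3.73 points, -2.47 of it present in CSDS replicate 1 alone, and -1.93 after correction, where the groups overlapped (exact permutation p = 0.1 as deposited). Without the strand-discordant CpGs the groups were still apart, at -3.79 points, but overlapped after correction, at -1.93. Prdm14 (chr1:13113428-13127163), a repressor that guards the germ cell fate, was at 17.5%, 19.9% and 19.4% in Control and 20.6%, 13.6% and 14.5% in CSDS. CSDS replicate 1 was the highest of the 6 and replicates 2 and 3 the lowest. The mean differed by -2.68 points and by 0.462 after correction (exact permutation p = 0.4). Tfap2c (chr2:172545678-172558622), which encodes AP-2 gamma, was at 24.1%, 25.9% and 26.9% in Control and 24.7%, 19.7% and 19.96% in CSDS. Replicate 1 lay inside the Control range, and the difference was -4.18 points and -1.42 after correction (exact permutation p = 0.2). Nanos3 (chr8:84173733-84176552), an RNA-binding protein, had 2 cytosines listed in all libraries, 418 and 390 bases after its start. The first read between 88.0% and 97.3% in all 6 libraries. The second was at 95.5%, 92.5% and 81.4% in Control and 57.9%, 88.6% and 66.7% in CSDS, with groups that overlapped, so both Nanos3 positions were mostly methylated.

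The table as a whole gives the background for these genes. None of the 9 was called, the rule being an adjusted p under 0.05 and at least 10 points in a quasi-binomial F test with limma-moderated dispersion and Benjamini-Hochberg adjustment over all genes. The same test called 0.0% of all 28752 genes, as did limma on log ratios. An unadjusted p under 0.05 was found for 5 of the 9 (Lin28a, Utf1, Prdm1, Tfap2c and Sox2), and for 30.7% of all genes, and adjusted p ran from 0.13 at Prdm1 to 0.858 at Pou5f1. All CSDS libraries were lower than all Control libraries at 4 of the 9 genes, against 31.0% of all genes, and all were higher at none, against 0.602%. The CSDS mean was lower at 9 of 9 genes as deposited, against 89.3% of all, but at 5 of 9 after the mitochondrial correction, against 62.9%. With the share at broadly expressed genes in its place it was lower at 4 of 9, against 47.2%. After the mitochondrial correction no gene had separate groups, against 9.12% lower and 2.97% higher of all genes. With the other correction 1 did, Utf1, which was higher by 1.21 points, against 9.15% higher and 6.04% lower of all genes. Utf1 was then at only 0.415% in Control and 1.62% in CSDS, so this separation is not read as a difference in methylation. The median difference of the 9 was -3.24 points as deposited, -0.613 and 0.0529 after the respective corrections, and -0.761 with CSDS replicate 1 as the only CSDS library. Over all genes these values were -2.66, -0.42, 0.107 and -0.634.

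**Figure D3:**
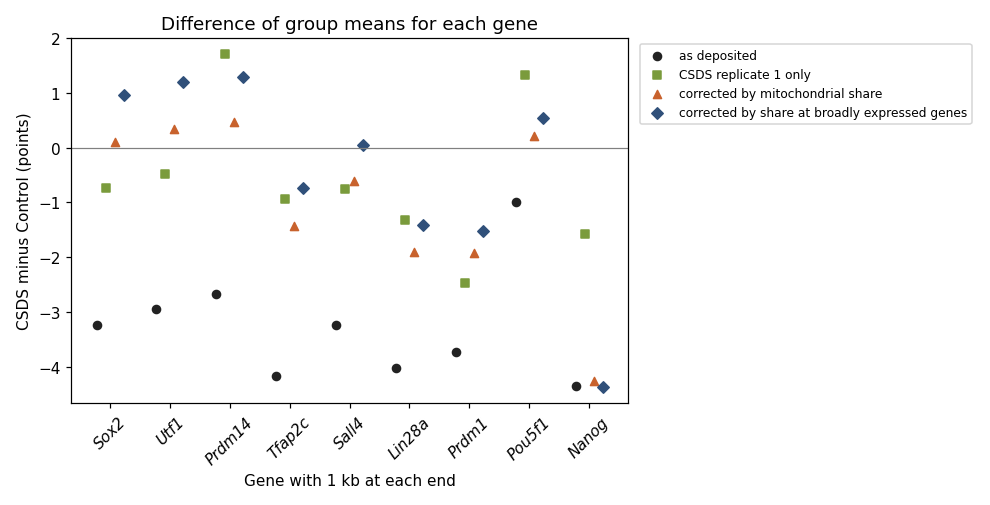
Difference of group means (CSDS minus Control, percentage points) for each of the 9 genes as deposited, with CSDS replicate 1 as the only CSDS library, and after correction by the mitochondrial share or by the share at broadly expressed genes. As deposited all 9 lie below 0, while after correction they fall on both sides of it, with Nanog alone below -4 throughout the corrections.

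Around their starts, where methylation and silencing are most often linked, the genes fell on both sides of the table's median of 16.4% over 21958 start windows. Those of Prdm14 (11.0%), Sox2 (11.4%), Utf1 (11.9%) and Sall4 (13.4%) were below it in Control, and those of Prdm1 (20.4%), Lin28a (23.1%), Tfap2c (23.4%), Pou5f1 (41.7%) and Nanog (92.2%) above it. This order rests in part on CpGs whose strands disagree, described below. Without them Lin28a was lowest (6.76%), then Utf1 (8.82%), Sox2 (9.19%), Prdm1 (9.75%), Sall4 (10.7%) and Prdm14 (11.0%), all 6 below the table's median of 11.4%. For Sall4, Prdm14 and Tfap2c no start was listed, and the window is at the gene end with more cytosines. The Tfap2c window, 22 cytosines, does not reach the CpG-dense tiles of that gene (chr2:172549501-172552000), which were at 13.5% to 18.7% in Control. None of the 9 was called, against 0.0% of all start windows, with adjusted p from 0.135 to 0.685 in the quasi-binomial F test, and none by limma, against 0.114%. An unadjusted p under 0.05 was found for 3 of them (Sox2, Utf1 and Prdm14) and for 34.7% of all. Groups were apart at none, against 32.0% lower and 0.524% higher of all windows, and the CSDS mean was lower at 9 of 9, against 91.5%. The Tfap2c window varied most, with 21.6%, 26.7% and 22.0% in Control and 30.0%, 18.7% and 17.7% in CSDS. There CSDS replicate 1 was the highest library and replicates 2 and 3 the lowest. At Pou5f1 the window was at 40.6%, 41.3% and 43.2% in Control and 43.2%, 38.2% and 38.6% in CSDS, overlapping. At the windows of Sall4, Lin28a, Prdm14 and Tfap2c, CSDS replicate 1 read higher than every Control library. After the mitochondrial correction the CSDS mean was lower at 2 of the 9 windows, against 58.7% of all, and with the other correction at 1, Nanog, against 40.8%. Groups were apart at none after either correction, against 8.03% lower and 3.9% higher, and 5.02% lower and 12.1% higher, of all windows. Corrected differences ran from -4.27 points at Nanog to 1.78 at Tfap2c.

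Tiles of 500 bp located the larger differences. Of 66 tiles in these genes 23 had a Control level under 20% and 23 over 80%. The mean was lower in CSDS at 57 of 66, against 73.7% of all tiles, and the groups were apart at 13, all lower, against 15.7% lower and 1.8% higher of all 163069 tiles. After the mitochondrial correction 4 were apart lower and 2 higher, against 7.67% and 3.7%. None was called by the quasi-binomial F test, against 0.0% of all tiles, although 20 of 66 had an unadjusted p under 0.05, against 15.6%. The lowest adjusted p was 0.178. Of the 23 tiles above 80% over all libraries, none had separate groups, but the share over all tiles of such levels was not computed.

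The tile with the largest difference was in Tfap2c, about 1 kb inside the gene end at base 172545678 and outside its most CpG-dense tiles (chr2:172546501-172547000, 12 cytosines). It stood at 29.8%, 32.4% and 27.3% in Control and at 21.6%, 19.5% and 20.7% in CSDS. The 3 CSDS libraries were close together and all lower, by -9.24 points, -6.98 after correction and -8.03 without strand-discordant CpGs (adjusted p = 0.178, quasi-binomial F test). At Prdm1 the largest was near the upstream end of the annotated span, far from the listed start (chr10:44527001-44527500, 7 cytosines). It read 22.2%, 21.5% and 22.0% in Control and 18.6%, 9.31% and 11.1% in CSDS. All CSDS libraries were lower, replicate 1 the least, with a difference of -8.91 points, -6.26 corrected and -6.39 without strand-discordant CpGs. At Lin28a it lay inside the gene, downstream of the start, (chr4:134017001-134017500, 12 cytosines), and read 33.9%, 37.5% and 35.6% in Control and 32.8%, 22.6% and 26.6% in CSDS. The difference was -8.33 points and -6.20 corrected, but -4.12 over the 6 cytosines left without strand-discordant CpGs. Without CSDS replicate 1 both the Prdm1 and the Lin28a tile were called, at -11.7 points (adjusted p = 0.0217) and -11.1 points (adjusted p = 0.026, quasi-binomial F test), as were 1.42% of all tiles. Of those 2310 tiles, 2282 were lower in CSDS. The CSDS libraries then left are replicates 2 and 3, with mitochondrial shares of 4.41% and 4.53%, and these counts were not corrected. A group difference cannot be told apart from that library difference there. The corresponding tiles of Sall4 (-5.45 points), Sox2 (-4.44) and Utf1 (-2.96) were at -2.49, -1.24 and 0.444 after correction, with groups overlapping. At Pou5f1, Nanog and Prdm14 no tile had separate groups.

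CpG density separated the levels more than the group did. Over the 637 cytosines of the 9 measured genes and Nanos3 in CpG-dense DNA (at least 20 listed cytosines within 100 bp) the Control mean was 13.2% ± 0.0816 and the CSDS mean 9.57% ± 2.71 (SD, n = 3 libraries each). Over the 173 in CpG-poor DNA (at most 6) it was 72.1% ± 0.809 and 69.2% ± 1.27. The dense cytosines differed by -3.65 points as deposited and -0.366 corrected, the poor ones by -2.91 and -1.96. In the whole table the corresponding differences were -3.32 and -0.0427 for dense, and -1.38 and -0.731 for poor DNA. The 436 cytosines between these limits differed by -3.40 points and by -0.951 corrected, beside -2.45 and -0.870 in the whole table. After correction the groups stayed apart for the poor cytosines of these genes and of the whole table (exact permutation p = 0.1 as deposited for each). Sall4 was the 1 gene whose CpG-poor cytosines had separate groups after correction, and it was singled out after its values were seen. There the 26 CpG-poor cytosines were at 82.4%, 82.9% and 82.0% in Control and 78.4%, 78.0% and 79.6% in CSDS. CSDS replicate 1 was as low as replicates 2 and 3, and the groups were apart by -3.79 points, and by -3.32 after correction. The 62 Sall4 cytosines between the limits of density were also apart, by -3.64 points and by -1.96 after correction. The 6 Sall4 tiles over 80% stood at 95.2% to 97.5% in Control, with groups overlapping before and after correction. The 26 cytosines had a lower mean, so they are not from those tiles alone. Neither their value without strand-discordant CpGs, described below, nor the share of all genes with such a separation was computed. At Prdm1 the 51 CpG-poor cytosines were apart as deposited, by -2.47 points, and overlapped after correction, at -1.86, and at Pou5f1, Nanog, Utf1, Lin28a, Prdm14 and Tfap2c they overlapped in both.

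Several of the high readings near CpG-rich starts were on 1 strand only. Of 537 CpGs with both strands measured in these genes, 68 (12.7%) had strands that differed by over 50 points on average over the 6 libraries. In the whole table the share was 8.05% of 906040. The higher strand was at 90.8% and the lower at 11.0% on average in the 68 CpGs, and the higher strand had fewer reads in 67 of them. At the Pou5f1 CpG in the printed CCGG, the forward strand read 10.3% over 416 reads and the reverse strand 88.6% over 115. At the Lin28a CpG in the printed CCGG, the forward strand read 100% in every library over 120 reads and the reverse strand 2.95% over 362. In promoter stretches, where the bases are known, 48.5% of 19922 CpGs inside CCGG and 0 of 92552 outside it differed so between strands. Cytosines inside CCGG there were at 39.3% in Control against 8.70% outside it. By gene the share of such CpGs ran from 4.76% at Prdm14 and 0 of 3 at Nanog to 26.0% at Lin28a. Leaving them out lowered the Control level of the Lin28a start window from 23.1% to 6.76%, of Prdm1 from 20.4% to 9.75% and of Tfap2c from 23.4% to 13.0%. The Pou5f1 window went from 41.7% to 33.3%, and its difference from -1.71 to 0.492 points. After correction that difference was 0.555 with these CpGs and 3.25 without them. Over the 10 cytosines then left, every CSDS library was above every Control library after correction, but the groups overlapped before it. The share of all start windows with such a separation was not computed. Why the strands differ was not tested.

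**Figure D4:**
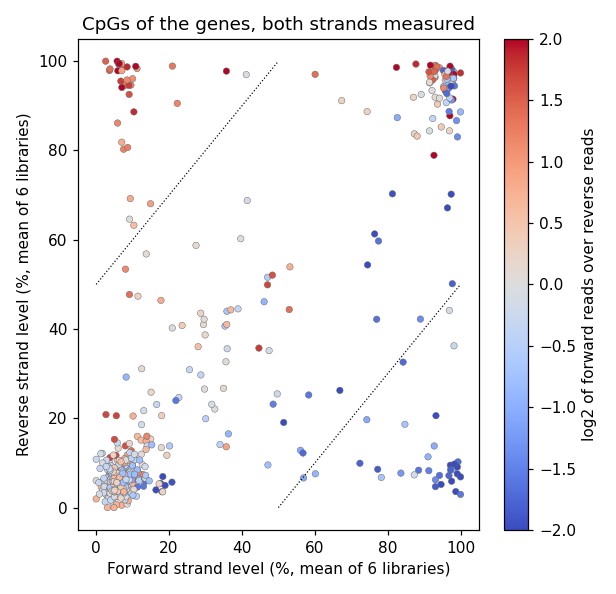
Level on the forward and on the reverse strand (percent of reads showing C, mean of 6 libraries) of the 537 CpGs of these genes with both strands measured; colour is the log2 of forward over reverse reads, and dotted lines mark a difference of 50 points. The 68 CpGs beyond the lines lie at the top left and bottom right, with the higher strand between 56.9% and 100%, and in 67 of them that strand was read less deeply.

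Other genes of the same networks were examined as 2 lists. In a list of 24 further pluripotency genes, 22 were measured. The CSDS mean was lower at 21 as deposited, beside 89.3% of all genes, groups were apart lower at 13, beside 31.0% of all genes, and none was called. Their median difference was -3.04 points and -0.486 after correction. Groups were then apart lower at 2, Gdf3 and Sall1, beside 9.12% of all genes, and higher at none, beside 2.97%. The largest was at Gdf3, a TGF-beta family ligand of the early embryo, with 24.6% in Control and 17.5% in CSDS, apart by -7.09 points and by -4.49 after correction. The zinc finger repressor gene Zfp281 (-5.16 points, -2.04 corrected), Tbx3 (-4.00, -1.12 corrected) and Foxd3 (-3.96, -0.741 corrected), which encode transcription factors, followed, with groups overlapping after correction. In a list of 22 genes of primordial germ cell specification and migration, 20 were measured, with the CSDS mean lower at 19, groups apart lower at 7 and none called, beside the same shares of all genes. Their median difference was -2.44 points and 0.237 after correction. Groups were then apart lower at 3 genes, Cxcl12, Kitl and Ifitm1, beside 9.12% of all genes. They were apart higher at 4, Ifitm3 (3.67 points), Fut4 (1.32), Smad5 (0.99) and Bmp2 (0.915), beside 2.97% of all genes. Sall1, Ifitm1, Fut4, Smad5 and Bmp2 are named after their values were seen. The largest were at Cxcl12 (-5.22 points, -2.59 corrected) and Kitl (-4.98, -2.29 corrected), which encode the ligands of CXCR4 and KIT that guide and sustain migrating germ cells. The mesoderm factors T (-3.98 points, -1.26 corrected) and Eomes (-3.84, -0.705 corrected) came next, with groups overlapping after correction. These lists were described by counts and were not tested as sets.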

How the data were processed

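DNA methylation was measured in 3 libraries titled Control and 3 titled CSDS. The submitters' processing notes name Trim Galore 0.5.0, Bismark 0.20.0 and GRCm38. Per the file headers, a deposited table holds the position and strand of a cytosine, the percent of its reads that are C or T, and its coverage, a read count. No cytosine under 10 reads is listed; handling of duplicates and the conversion rate are not given in the sources used here. Reads are not independent molecules, so precision from coverage covers counting error only.

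Methylated counts are the percent times coverage. Cytosines listed in all 6 libraries were used, strands kept apart, with genes and starts from RefSeq tables of GRCm38.p6. A start window is 1 kb either side of the most upstream listed start, or, for Sall4, Prdm14 and Tfap2c, of the gene end with more cytosines. Exons, introns and untranslated regions were not placed. Genes, start windows and 500 bp tiles with at least 3 cytosines were fitted by a quasi-binomial logistic model of counts, with dispersion moderated by limma 3.58.1 (R 4.3.3) and held at 1 or above, then an F test and Benjamini-Hochberg adjustment over all features. The model was tested on simulated data. Gene levels were also tested by an exact two-sided permutation of libraries in Python 3.11.15. Corrected levels are 100 minus the unmethylated percent divided by 1 minus the library's share read as C, and can fall below 0.

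The members and lists were chosen with earlier results of these data known. Named are all 10 genes, in each the tiles of lowest and highest Control level and of largest difference among those with separate groups, and from each pathway list up to 4 genes of largest difference with at least 10 cytosines. The cytosines singled out at Pou5f1 and Lin28a, the CpG-poor cytosines of Sall4, Dppa2, Ifitm3 and the genes named for separate groups after correction were chosen after their values were seen. Lists are the pluripotency network, primordial germ cell genes, germline, Sertoli, Leydig, immune, endothelial and broadly expressed genes, and imprints. Alternatives were coverage minimum and cap, flank, merged strands, summed reads, both corrections, the replicate block, limma on log2 ratios (pseudocount 1), no minimum difference and each library left out. Those without CSDS replicates 2 and 3, without the shallower strand and without strand-discordant CpGs were chosen after seeing the data.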

Additional observations from a re-analysis of the deposited data

How the results depend on the processing

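None of the 9 genes was called under any alternative run, and neither were their start windows. Their median difference of -3.24 points was -0.613 after the mitochondrial correction, 0.0529 after that by broadly expressed genes and -0.761 without CSDS replicates 2 and 3. It lay between -4.49 and -2.37 with 1 library left out. Leaving out 1 library gave 0 to 147 called genes, 0 to 359 called start windows, 0 to 2310 called tiles and 0 to 2 called tiles of these genes, each highest without CSDS replicate 1. Limma on log ratios called 25 start windows in place of 0. With the replicate number as a block 0 genes, 0 start windows and 0 tiles were called, and no call changed. Libraries with the same number in both groups shared no deviation from their group means, with correlations over genes of -0.0844, -0.0963 and -0.00123. With 3 libraries a group, these values cannot show whether the numbers pair the samples. For the 32 differences of single genes, start windows and tiles, 413 of 497 alternative values moved by less than the spread between replicates, 40 moved more and 44 changed sign. By the mitochondrial correction these were Pou5f1 (0.215 points), Utf1 (0.349), Prdm14 (0.462) and Sox2 (0.101), the Utf1 tile (0.444), and the start windows of Pou5f1 (0.555), Sall4 (0.156), Lin28a (0.43), Utf1 (0.574), Prdm1 (0.885), Tfap2c (1.78) and Sox2 (0.245). By the correction with broadly expressed genes they were Pou5f1 (0.55), Sall4 (0.0529), Utf1 (1.21), Prdm14 (1.29), Sox2 (0.962), Foxd3 (0.0692) and Eomes (0.085), the Utf1 tile (1.33), and the start windows of Pou5f1 (1.17), Sall4 (1.03), Lin28a (1.21), Utf1 (1.46), Prdm1 (1.71), Prdm14 (0.762), Tfap2c (2.61) and Sox2 (1.12). Without CSDS replicates 2 and 3 they were Pou5f1 (1.33) and Prdm14 (1.70), and the start windows of Pou5f1 (1.45), Sall4 (0.966), Lin28a (0.97), Prdm1 (0.0586), Prdm14 (0.913) and Tfap2c (6.53). The Pou5f1 start window was at 0.392 with a coverage minimum of 20 and without the shallower strand, and at 0.492 without strand-discordant CpGs. With 1 library left out Pou5f1 ran from -2.24 to 0.151 and the Tfap2c start window from -5.26 to 0.892. Apart from the smaller number of samples or cytosines, the cause of these changes was not tested. The correction with broadly expressed genes put the Control mean of several start windows below 0. It was -3.22% at Prdm14, -2.71% at Sox2, -2.2% at Utf1 and -0.452% at Sall4, so those changes of sign are not read as differences in methylation. With 3 libraries a group the exact test cannot go under 0.1, Nanog rests on 6 cytosines, and bases outside promoter stretches were not known, so CCGG was not placed there.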

Other observations

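In the 2 pathway lists, 2 genes had a higher mean in CSDS as deposited, Dppa2 (47.0% in Control and 47.3% in CSDS, 6 cytosines), a germ cell and embryonic stem cell gene, and Ifitm3 (14.7% and 15.0%, 21 cytosines), a marker of early germ cells. Their groups overlapped as deposited.

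At the CpG inside CCGG that was read on both strands in the printed Sox2 stretch, 58 bases upstream of the start on the forward strand, the libraries read 18.8%, 25.8% and 54.5% in Control and 23.7%, 100% and 60.0% in CSDS. The reverse strand of that CpG was between 0% and 16.7% in all 6. In Lin28a the reverse strand at base 134017668 read 76.5%, 88.2% and 73.7% in Control and 43.9%, 43.5% and 53.7% in CSDS, with groups apart. In Tfap2c the forward strand at base 172546959 read 94.4%, 92.0% and 87.0% in Control and 72.7%, 43.3% and 44.8% in CSDS, also apart. Both are the higher strand of a strand-discordant CpG, and these cytosines were chosen after their values were seen. As deposited, groups were apart lower at 11 of the 112 cytosines of Lin28a and at 34 of the 283 of Tfap2c. They were apart higher at 0 and 3, respectively. The share over all cytosines was not computed.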
